A study of Mus musculus with 24 samples.

Results

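The MYC and MAX network is a small family of transcription factors that share a basic helix-loop-helix leucine zipper and pair through it. MYC bound to MAX occupies E-box sequences (CACGTG) and raises transcription of genes for ribosome production, nucleotide synthesis and nutrient uptake, and in T cells it is switched on by the antigen receptor. MXD1, MXD3, MXD4, MXI1 and MNT bind the same sites with MAX and bring in SIN3 and histone deacetylase corepressors, while MLX pairs with MNT, with some MXD proteins and with the glucose-sensing factor MondoA. Members were taken as every gene of the array whose name was Myc, Mycn, Max, Mxd1, Mxd3, Mxd4, Mxi1, Mnt or Mlx, which gave 9 of 27670 genes and 18 probes. A probe was kept where some group had 3 or 4 arrays on which it was well above background, and 14 of the 18 probes, of 8 of the 9 genes, were kept.

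The study measured total RNA of CD4 positive T cells from C57BL/6 female mice aged 6 or 7 weeks on Agilent one-colour (Cy3) arrays. Mice with a T cell-specific conditional knockout of Trim28 (CKO), which encodes a corepressor recruited by zinc finger proteins, were set against wild-type (WT) mice. Naive cells were sorted as CD4+CD62+CD25- and regulatory T cells (Treg) as CD4+CD62+CD25+. There were 6 groups of 4 arrays: unstimulated naive cells, naive cells after 13 hours on plate-coated anti-CD3 and anti-CD28, and Treg, each as WT and CKO. The treatment label of the 4 CKO Treg arrays reads TCR stimulated and that of the 4 WT Treg arrays reads unstimulated, whereas the design text describes stimulation of naive cells only. The CKO and WT Treg may therefore differ in treatment as well as in genotype, and these cannot be told apart in any comparison below that uses the CKO Treg arrays. The Cre driver, the floxed allele and whether the 4 arrays of a group came from separate animals are not given in the sources used here, so p-values measure only the spread between these arrays.

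Values are log2 of the background-corrected signal minus the 75th percentile of the same array, so 0 is the level of a probe brighter than 75% of the probes of that array. A probe is compared only with itself across arrays. A gene is called higher or lower where limma's moderated test, fitted over all 24 arrays and 16489 genes, gave an adjusted p (Benjamini-Hochberg) under 0.05. Errors of differences are standard errors (SE), and errors of group means are SD over 4 arrays. Array 75th percentiles ran from 154 to 372 in the naive groups, from 53.9 to 200 in WT Treg and from 31.3 to 116 in CKO Treg, so Treg arrays, and most of all CKO Treg arrays, were dimmer. Trim28 was lower in CKO by 1.51 ± 0.17 in unstimulated cells, 2.68 ± 0.17 in stimulated cells and 1.57 ± 0.17 in Treg on the log2 scale, with no overlap between genotypes in any state. The Treg markers Foxp3, Il2ra, Ikzf2, Ctla4 and Tnfrsf18 were all called higher in Treg than in unstimulated naive cells, in both genotypes. In whole-population RNA, fewer cells of a type and less RNA per cell cannot be told apart.

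The promoters of 8 members were found in RefSeq (build GRCm38.p6), in 10 entries that run from 250 bases before the transcription start to 50 bases past it. Myc had no entry there, so its promoter was not searched. The MYC and MAX binding sequence CACGTG, which reads the same on both strands, was searched because it is the site the members themselves bind. It occurred in the windows of 4 members, Max, Mxd4, Mnt and Mlx, beside 7.15% of all 32851 promoters. An E2F and a forkhead motif were also searched, on both strands. TTTCCCGC, the E2F motif, was in none of the 10 windows and in 1.07% of all promoters. GTAAACA, the forkhead motif, was in 1 of the 3 Mxi1 windows and in 3.65% of all promoters. No window held 2 of these motifs. A match is a description of the letters and was not tested as a binding site. The 4 promoters with CACGTG are printed 5′ to 3′ on the strand of the gene, up to the transcription start, with CACGTG in capitals. In Max (chr12:76962246-76962498, minus strand) the site spans the start itself, and the printed sequence runs 3 bases past it. In Mxd4 (chr5:34187711-34187960, minus strand) it lies 219 to 214 bases before the start, in Mnt (chr11:74830674-74830923, plus strand) 123 to 118 bases before it, and in Mlx (chr11:101087040-101087289, plus strand) 40 to 35 bases before it.
Max: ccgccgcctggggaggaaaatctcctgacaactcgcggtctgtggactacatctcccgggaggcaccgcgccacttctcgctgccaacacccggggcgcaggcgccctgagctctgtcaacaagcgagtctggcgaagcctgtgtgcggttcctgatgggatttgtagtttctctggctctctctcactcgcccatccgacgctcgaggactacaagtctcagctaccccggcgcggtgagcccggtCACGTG
Mxd4: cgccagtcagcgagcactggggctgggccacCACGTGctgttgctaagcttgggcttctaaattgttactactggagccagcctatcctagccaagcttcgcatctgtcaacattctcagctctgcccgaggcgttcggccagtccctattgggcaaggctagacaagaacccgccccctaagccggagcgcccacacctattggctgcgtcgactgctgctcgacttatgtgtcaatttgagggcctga
Mnt: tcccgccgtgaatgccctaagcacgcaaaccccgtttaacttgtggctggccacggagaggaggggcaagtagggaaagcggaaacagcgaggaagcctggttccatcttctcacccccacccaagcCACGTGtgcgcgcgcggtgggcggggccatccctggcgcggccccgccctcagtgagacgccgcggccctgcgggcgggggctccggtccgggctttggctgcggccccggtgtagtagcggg
Mlx: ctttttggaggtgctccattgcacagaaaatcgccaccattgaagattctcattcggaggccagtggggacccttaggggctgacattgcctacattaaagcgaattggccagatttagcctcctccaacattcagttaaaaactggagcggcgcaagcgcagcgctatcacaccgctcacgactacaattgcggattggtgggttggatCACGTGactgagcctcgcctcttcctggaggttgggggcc

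After stimulation Myc rose by 4.08-fold in WT and 3.94-fold in CKO cells, while the antagonists Mxd1, Mxd4, Mxi1 and Mnt fell in both. In WT cells all 8 measured members were called, 3 higher and 5 lower, beside 61.9% of all genes called (31.7% higher, 30.2% lower). In CKO cells 7 were called, 2 higher and 5 lower, beside 60.2% of all genes (29.7% higher, 30.4% lower). Since stimulation changed most of the transcriptome, the number of members called says little about the network, and the content lies in which of them went up and which down. The median member difference was -0.91 in both genotypes, beside -0.03 and -0.08 for all genes. In Treg against unstimulated naive cells, 7 members were called in WT (5 higher, 2 lower) beside 48.4% of all genes (18.9% higher, 29.4% lower), and 4 in CKO (2 higher, 2 lower) beside 28.3% (11.6% higher, 16.7% lower).

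Between genotypes fewer members differed. CKO against WT gave 3 called members in unstimulated cells (Mxi1 higher, Myc and Mlx lower) beside 18.7% of all genes (7.83% higher, 10.9% lower), and 3 in stimulated cells (Mxd1 and Mxd4 higher, Myc lower) beside 24% of all genes (11.6% higher, 12.4% lower). In Treg 1 member was called, Myc, which was lower, beside 4.31% of all genes (2.47% higher, 1.84% lower). Mxd4 was the 1 member whose response to stimulation differed between genotypes, beside 3.42% of all genes (2.12% with a positive and 1.3% with a negative difference). No member was called for a difference between the genotypes in the Treg against naive contrast, where limma called 0.394% of all genes (0.237% with a positive and 0.158% with a negative difference) and Mnt and Mlx had unadjusted p under 0.05 (0.0412 and 0.0254). These comparisons share arrays: each stimulated or Treg contrast and the matching genotype contrast use the same unstimulated, stimulated or Treg groups, so their values are given side by side without a test of likeness.

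**Figure D1:**
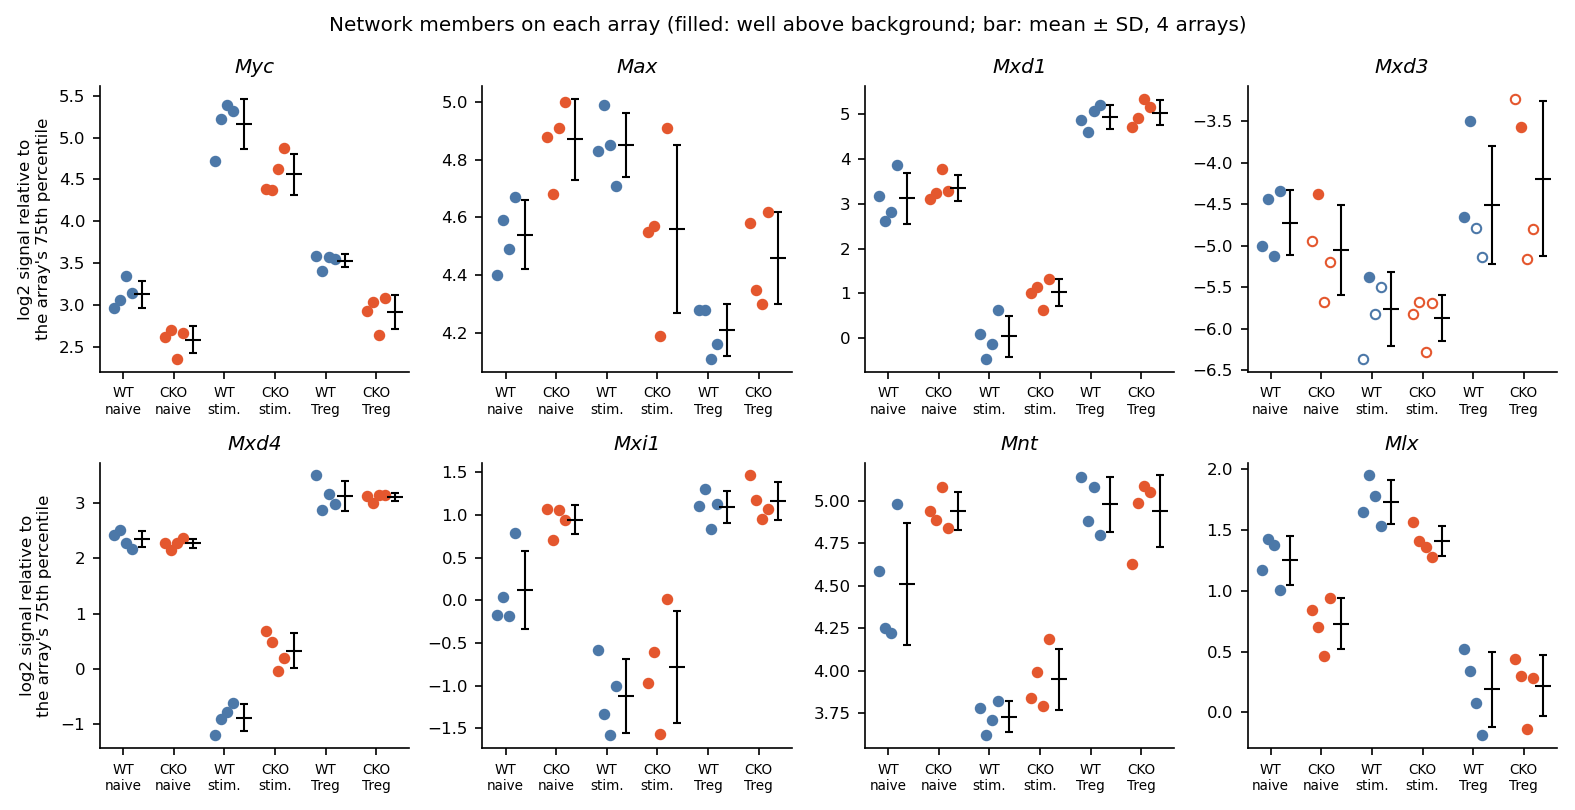
Each panel shows 1 member, with the 6 groups along the horizontal axis and the log2 signal relative to the array's 75th percentile on the vertical axis; every point is 1 array, filled where the probe was well above background, and bars are mean ± SD of 4 arrays. Myc was highest on the 8 stimulated arrays (4.37 to 5.39), where Mxd4 was lowest (-1.20 to 0.68).

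Myc, the network's activator in T cells, was measured by 3 kept probes, of which the brightest (A_51_P102096) was printed 10 times on each array. The SD of log2 signal over those 10 spots was 0.03 to 0.07 on 23 of the 24 arrays and 0.37 on WT stimulated replicate 1. Unstimulated WT arrays read 2.97, 3.06, 3.35 and 3.15 for Myc, and unstimulated CKO arrays read 2.62, 2.70, 2.36 and 2.67. After stimulation the WT arrays read 4.72, 5.22, 5.39 and 5.32 and the CKO arrays 4.39, 4.37, 4.63 and 4.87. The WT Treg values were 3.59, 3.41, 3.58 and 3.55, and those of CKO Treg 2.93, 3.04, 2.64 and 3.08. Thus every CKO array lay below every WT array of its state in unstimulated cells and Treg, and in stimulated cells only WT replicate 1 (4.72), the array with the wide spread between spots, reached into the CKO range.

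Stimulation raised Myc by 2.03 ± 0.15 in WT cells (4.08-fold, adjusted p = 2.18e-10) and by 1.98 ± 0.15 in CKO cells (3.94-fold, adjusted p = 5.14e-10). The genotypes' responses differed by -0.05 ± 0.21 (95% interval -0.50 to 0.39, adjusted p = 0.935), which leaves room for a modest difference either way. At each state the CKO level was 1.46- to 1.52-fold lower: by 0.55 ± 0.15 on the log2 scale in unstimulated cells (1.46-fold, adjusted p = 0.0176), by 0.60 ± 0.15 in stimulated cells (1.52-fold, adjusted p = 0.00776) and by 0.61 ± 0.15 in Treg (1.52-fold, adjusted p = 0.019). The arrays were spread over 6 slides of 4 arrays, and each state had 4 slides that held both a CKO and a WT array. On all of them the CKO array had the lower Myc value, with differences from -1.0 to -0.35 in unstimulated cells, -0.85 to -0.34 in stimulated cells and -0.94 to -0.37 in Treg. The order of the groups was WT stimulated, CKO stimulated, WT Treg, WT unstimulated, CKO Treg and CKO unstimulated. In that order WT and CKO stimulated overlapped, as did WT unstimulated with CKO Treg and CKO Treg with CKO unstimulated.

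The Myc genotype calls depended on single arrays and on the scaling, although the direction of the brightest probe's difference did not. The unstimulated call was lost without WT replicate 3 (adjusted p = 0.0658) or CKO replicate 3 (0.0652), and the Treg call without WT replicate 1 (0.054), WT replicate 3 (0.0519) or CKO replicate 3 (0.0791). The stimulated call held without any one array but was lost under quantile normalization (-0.31, adjusted p = 0.17), in the authors' own normalized values (-0.30, adjusted p = 0.184), with scaling on the brightest shared probes (-0.39, 0.0625), under normexp background correction (-0.75, 0.102) and with only the compared arrays (-0.60, 0.0578). The unstimulated call was also lost under normexp (adjusted p = 0.345) and with the 3 probes averaged (-0.38, 0.0548), and the Treg call under normexp (-0.46, adjusted p = 1), with dim probes left in (0.0571) and with only the compared arrays (0.0823). Over all settings tried the difference stayed negative, from -0.63 to -0.38 in unstimulated cells, from -0.84 to -0.30 in stimulated cells and from -0.67 to -0.46 in Treg. Where every kept probe was tested, these ranges take only the probe with the smallest p. The third probe, A_52_P278549, had unstimulated means of -0.90 in WT and -0.85 in CKO, so the direction was not shared by all probes.

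**Figure D2:**
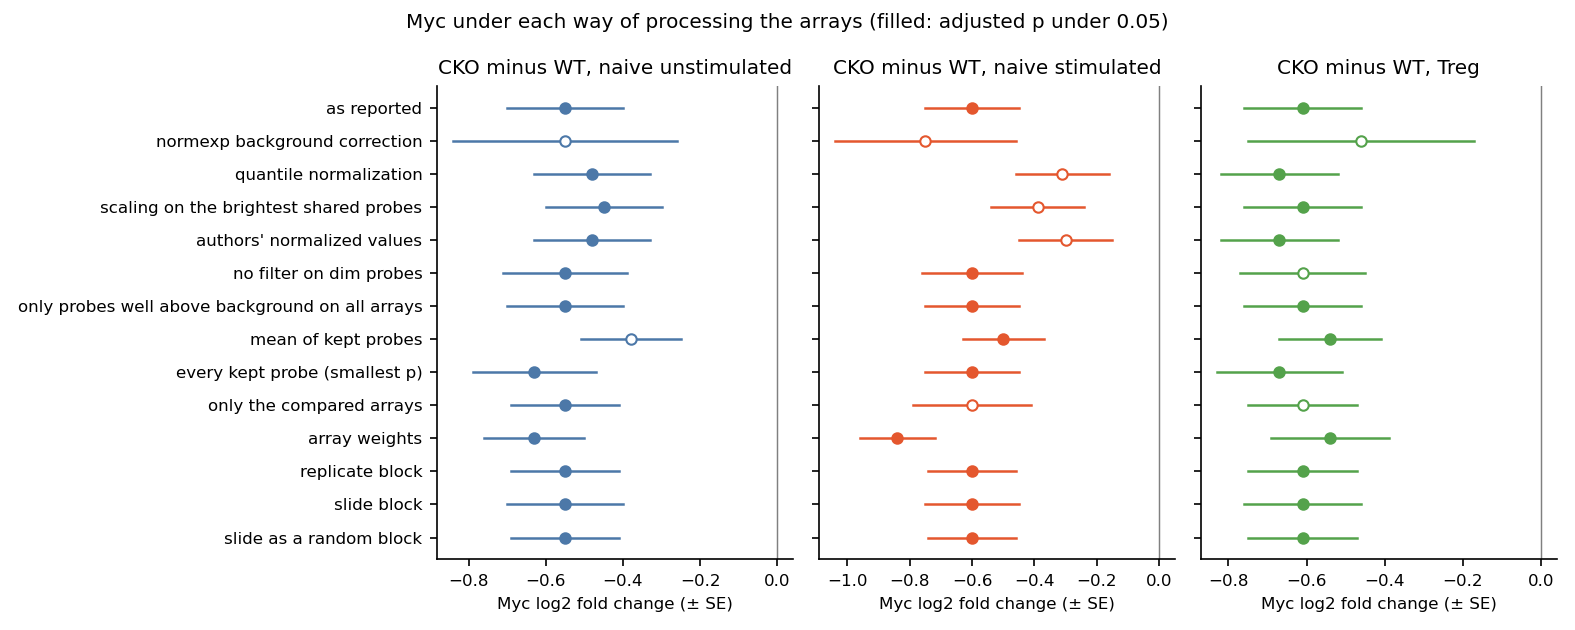
Each panel is 1 cell state; the horizontal axis is the CKO minus WT log2 fold change of Myc with its SE, and each line is 1 way of processing the arrays, filled where the adjusted p was under 0.05. All points lie left of zero, and the stimulated panel has the most open points, with -0.30 as its smallest difference in the authors' normalized values; where every kept probe was tested, the probe with the smallest p is drawn.

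Treg carried more Myc RNA than unstimulated naive cells in WT by 0.40 ± 0.15 (1.32-fold, adjusted p = 0.0334, no overlap) and in CKO by 0.34 ± 0.15, which missed the threshold (adjusted p = 0.098). The WT call was lost without WT unstimulated replicate 1 (adjusted p = 0.0878) or 2 (0.0794) and without WT Treg replicate 1 (0.0594), 3 (0.0718) or 4 (0.0654). It was also lost with the slide as a block (0.35, adjusted p = 0.0859), and its sign turned under normexp background correction (-0.23, adjusted p = 0.484). Of 13 other ways of processing, 4 lost the WT call with the sign kept, the slide block among them. The CKO difference was called in 6 of the 13, and its value ran from -0.13 to 0.96 over them.

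The other Myc probes did not all give the same genotype difference. Probe A_52_P108346 was lower in CKO by 0.63 (adjusted p = 0.0104), 0.60 (0.0102) and 0.67 (0.014) in unstimulated cells, stimulated cells and Treg. Probe A_52_P278549 gave 0.05 (adjusted p = 0.893), -0.28 (0.35) and -0.35 (0.559) and was called in none of the 3 states. All 3 Myc probes were called higher after stimulation, the second by 2.16 in WT and 2.19 in CKO and the third by 2.51 and 2.18. In Treg the third probe was higher than in unstimulated cells by 1.36 in WT (adjusted p = 6.79e-05) and 0.96 in CKO (adjusted p = 0.00282).

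**Figure D3:**
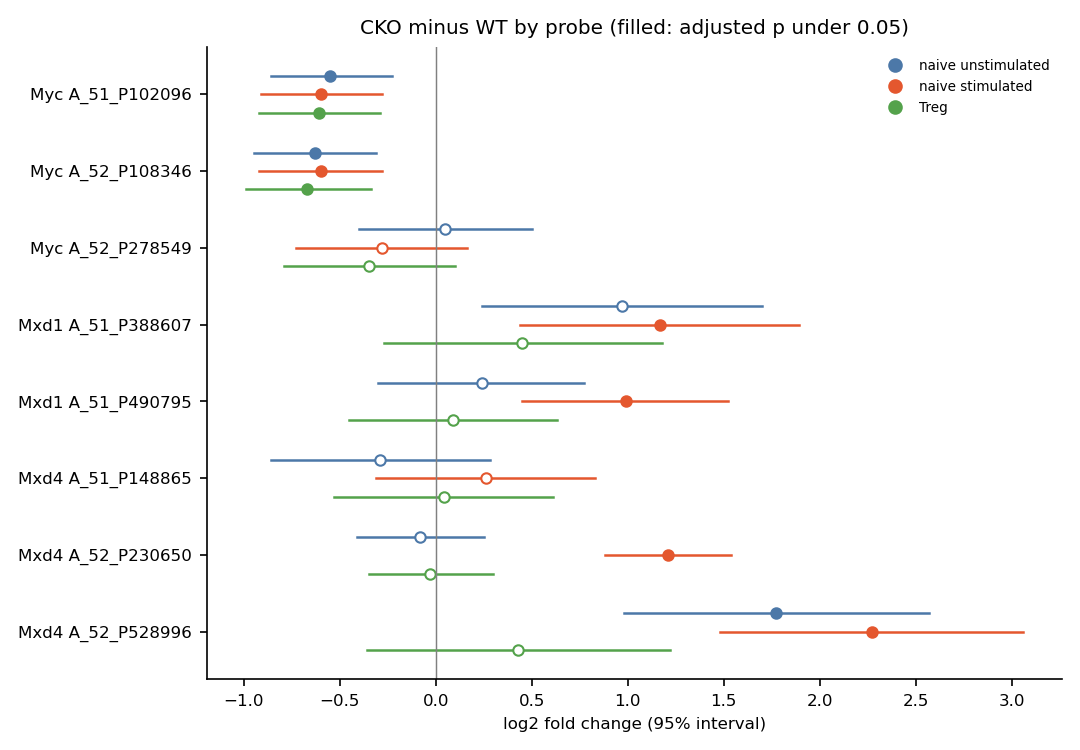
Each line is 1 kept probe of Myc, Mxd1 or Mxd4, and the horizontal axis is its CKO minus WT log2 fold change with the 95% interval, coloured by cell state and filled where the adjusted p was under 0.05. For Myc the probe A_52_P278549 lies nearer to zero than the other 2, and for Mxd4 the 3 probes spread from -0.29 to 1.77 in unstimulated cells.

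Mycn, the MYC paralogue of progenitor and neural cells, had 2 probes, and neither rose well above background on any array. No level is given for it.

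Max, the shared partner of MYC and of its antagonists, stayed between 4.11 and 5.0 on all 24 arrays. Unstimulated WT arrays gave 4.40, 4.59, 4.49 and 4.67 for Max and unstimulated CKO arrays 4.88, 4.68, 4.91 and 5.0. The stimulated values were 4.83, 4.99, 4.85 and 4.71 in WT and 4.55, 4.57, 4.19 and 4.91 in CKO. In Treg they were 4.28, 4.28, 4.11 and 4.16 in WT and 4.58, 4.35, 4.30 and 4.62 in CKO. The genotypes did not overlap in unstimulated cells or in Treg, where CKO was the higher, but no genotype difference in Max passed the test: 0.33 ± 0.13 (adjusted p = 0.0758), -0.29 ± 0.13 (0.104) and 0.26 ± 0.13 (0.386) in unstimulated cells, stimulated cells and Treg. The unstimulated difference was called under quantile normalization (0.47, adjusted p = 0.000781), in the authors' values (0.47, 0.000791), with brightest-probe scaling (0.43, 0.00247) and with array weights (0.37, 0.00721), and the stimulated one with array weights (-0.28, 0.021).

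Stimulation raised Max in WT by 0.31 ± 0.13 (adjusted p = 0.0432) and lowered it in CKO by the same amount (-0.31 ± 0.13, adjusted p = 0.0423). The difference between these responses, -0.62 ± 0.18, missed the threshold (adjusted p = 0.0683), and passed it without CKO stimulated replicate 4 (-0.74, adjusted p = 0.0157) or without WT unstimulated replicate 4 (-0.66, adjusted p = 0.0484). The WT call was lost without replicate 1, 2 or 3 of either group (adjusted p 0.0539 to 0.118), and the CKO call without stimulated replicate 1, 2 or 3 or unstimulated replicate 1, 3 or 4 (0.0667 to 0.192). The WT sign also turned under quantile normalization and in the authors' values (-0.07 in both), and the value was 0.00 with brightest-probe scaling. Both stimulation calls were lost under normexp (WT 0.36, adjusted p = 0.248, and CKO -0.36, 0.263), with dim probes left in (0.106 and 0.101) and with only the compared arrays (0.0554 and 0.129). The difference between the responses was called in 6 ways of processing, among them quantile normalization (-0.50, 0.0201) and array weights (-0.65, 0.00362). Max was lower in Treg than in unstimulated cells by 0.33 ± 0.13 in WT (adjusted p = 0.0385) and 0.40 ± 0.13 in CKO (adjusted p = 0.0237). The WT call was lost without unstimulated replicate 2, 3 or 4 or Treg replicate 3 or 4 (adjusted p 0.0542 to 0.0967), and the CKO call without unstimulated replicate 1, 3 or 4 or Treg replicate 2 or 3 (0.0526 to 0.0799). Under quantile normalization and in the authors' values the WT value was 0.05 and the CKO value -0.17 (adjusted p = 0.142 and 0.14), and with brightest-probe scaling they were -0.01 and -0.18 (0.118), none of them called. With only the compared arrays both calls were lost as well (0.0765 and 0.0525), and with dim probes left in the WT call (0.0783).

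Mxd1, an antagonist that accumulates as cells leave the cycle, ran from -0.46 to 5.34 over the arrays. It read 3.18, 2.61, 2.82 and 3.87 in unstimulated WT cells and 3.10, 3.25, 3.78 and 3.29 in unstimulated CKO cells. Stimulated WT cells read 0.10, -0.46, -0.12 and 0.64, and stimulated CKO cells 1.02, 1.14, 0.63 and 1.33. Treg values were 4.86, 4.60, 5.08 and 5.21 in WT and 4.71, 4.91, 5.34 and 5.16 in CKO. The cell states did not overlap at all, with Treg on top and stimulated cells at the bottom, whereas the genotypes overlapped in every state. In stimulated cells the overlap was WT replicate 4 (0.64) against CKO replicate 3 (0.63).

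Mxd1 on stimulation fell by 3.08 ± 0.26 in WT (8.44-fold, adjusted p = 1.42e-09) and fell by 2.33 ± 0.26 in CKO (5.02-fold, adjusted p = 1.22e-07). In stimulated cells it was 1.98-fold higher in CKO (0.99 ± 0.26, adjusted p = 0.0101), with within-slide differences of 0.91, 1.60, 0.69 and 0.75. The call was lost under normexp (0.75, adjusted p = 0.123). The difference between the responses was 0.75 ± 0.36 and was not called (adjusted p = 0.333). Treg exceeded unstimulated cells by 1.82 ± 0.26 in WT (3.53-fold, adjusted p = 1.88e-05) and 1.67 ± 0.26 in CKO (3.19-fold, adjusted p = 6.79e-05). The second Mxd1 probe, A_51_P388607, had the same signs: stimulated CKO exceeded WT by 1.17 ± 0.35 (adjusted p = 0.0221), with no overlap, and stimulation lowered it by 2.75 in WT and 2.56 in CKO. Its unstimulated means were -1.08 in WT and -0.11 in CKO, beside 3.12 and 3.36 for the brightest probe. On the second probe the CKO level was thus higher without stimulation too, though this was not called, and the 2 falls were more alike.

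Mxd4, the MXD protein typical of resting and differentiated cells, gave the smallest adjusted p of any member between genotypes, in stimulated cells. Unstimulated WT cells read 2.43, 2.51, 2.27 and 2.17 and unstimulated CKO cells 2.27, 2.15, 2.27 and 2.37. After stimulation WT cells read -1.20, -0.91, -0.78 and -0.62 and CKO cells 0.68, 0.48, -0.04 and 0.20. In Treg the values were 3.50, 2.88, 3.17 and 2.99 in WT and 3.13, 3.00, 3.15 and 3.15 in CKO. All 4 stimulated CKO arrays lay above all 4 stimulated WT arrays, while the genotypes overlapped in unstimulated cells and in Treg.

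Stimulation lowered Mxd4 by 3.22 ± 0.16 in WT (9.33-fold, adjusted p = 4.27e-13) and by 1.93 ± 0.16 in CKO (3.82-fold, adjusted p = 1.29e-09). The responses differed by 1.29 ± 0.22 (95% interval 0.83 to 1.75, adjusted p = 0.00183). The stimulated CKO level was 2.31-fold above WT (1.21 ± 0.16, adjusted p = 2.02e-05), and the within-slide differences were 1.88, 1.40, 0.81 and 0.74. In unstimulated cells the genotype difference was -0.08 ± 0.16 (95% interval -0.41 to 0.25, adjusted p = 0.751) and in Treg -0.03 ± 0.16 (-0.35 to 0.30, 0.977). The Treg level exceeded that of unstimulated cells by 0.79 ± 0.16 in WT (adjusted p = 0.000516) and 0.84 ± 0.16 in CKO (adjusted p = 0.000488), and under normexp neither was called (0.14, 0.54, and 0.35, 0.126). The stimulated genotype call held in every setting tried (0.89 to 1.41), and the difference between responses was lost under normexp background correction only (1.00, adjusted p = 0.159).

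The 3 Mxd4 probes gave different genotype values. Probe A_51_P148865, well above background on every array, gave 0.26 ± 0.27 in stimulated cells (adjusted p = 0.51) and a difference between responses of 0.55 ± 0.39 (adjusted p = 0.54), neither of which was called. Probe A_52_P528996 was higher in CKO both in unstimulated cells (1.77 ± 0.38, adjusted p = 0.00444) and in stimulated cells, where no WT array was well above background and the fold is a bound of at least 2.31-fold (adjusted p = 0.00035). With the 3 probes averaged, the unstimulated genotype difference of Mxd4 was 0.47 (adjusted p = 0.0225) instead of -0.08. All 3 probes fell on stimulation and were higher in Treg than in unstimulated cells in both genotypes, so those directions did not depend on the probe.

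Mxi1, another MAX-binding repressor, read -0.17, 0.04, -0.18 and 0.79 in unstimulated WT cells and 1.07, 0.70, 1.06 and 0.94 in unstimulated CKO cells. Stimulated WT cells gave -0.58, -1.33, -1.58 and -1.0 and stimulated CKO cells -0.97, -0.61, -1.57 and 0.01. Treg gave 1.10, 1.30, 0.83 and 1.13 in WT and 1.46, 1.17, 0.95 and 1.07 in CKO. WT unstimulated replicate 4 (0.79) was the one WT array inside the CKO range, and the genotypes overlapped widely in the other states. The unstimulated CKO level was 1.77-fold higher (0.82 ± 0.27, adjusted p = 0.0406). That call rested on nearly every array: it was lost when any single array other than WT replicate 4 was left out, with adjusted p from 0.0603 to 0.118. It was also lost under normexp (0.70, 0.133), with dim probes left in (0.0816) and with only the compared arrays (0.0542).

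Stimulation lowered Mxi1 by 1.24 ± 0.27 in WT (adjusted p = 0.000457) and by 1.73 ± 0.27 in CKO (adjusted p = 1.34e-05). Treg exceeded unstimulated cells by 0.97 ± 0.27 in WT (adjusted p = 0.00681; under normexp 0.51 and 0.07) and by 0.22 ± 0.27 in CKO, which was not called (adjusted p = 0.576). The difference between those Treg contrasts was -0.75 ± 0.39 and did not pass the test (adjusted p = 0.394). The second Mxi1 probe was near background and was not kept.

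Mxd3, the MXD protein associated with S phase, was dim. Its one kept probe was well above background on all 4 unstimulated WT arrays, on 2 WT Treg arrays, on 1 array each of unstimulated CKO, stimulated WT and CKO Treg, and on no stimulated CKO array. On stimulation of WT cells it fell by 1.04 ± 0.40 (adjusted p = 0.0281), a call lost without WT unstimulated replicate 2 (0.0686) or 4 (0.0769) or WT stimulated replicate 1 (0.0959) or 3 (0.0527). It was lost too under normexp (-0.13, 0.884), quantile normalization (-0.78, 0.146) and array weights (-0.76, 0.0787) and in the authors' values (-0.78, 0.145). In CKO the fall was not called (-0.82 ± 0.40, adjusted p = 0.0812) and the groups overlapped. With 1 unstimulated and no stimulated CKO array well above background, the values set no least fold. No genotype difference in Mxd3 was called.

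Mnt, which pairs with MAX or MLX and is present in cycling and resting cells alike, read 4.59, 4.25, 4.22 and 4.98 in unstimulated WT cells and 4.94, 4.89, 5.08 and 4.84 in unstimulated CKO cells. Stimulated cells read 3.78, 3.62, 3.71 and 3.82 in WT and 3.84, 3.99, 3.79 and 4.19 in CKO. In Treg Mnt read 5.14, 4.88, 5.08 and 4.80 in WT and 4.63, 4.99, 5.09 and 5.05 in CKO. All 8 stimulated arrays lay below all the others. Stimulation lowered Mnt by 0.78 ± 0.15 in WT (1.71-fold, adjusted p = 0.000128) and by 0.99 ± 0.15 in CKO (1.98-fold, adjusted p = 8.96e-06).

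The genotype difference of Mnt in unstimulated cells, 0.43 ± 0.15, missed the threshold (adjusted p = 0.0515), and WT replicate 4 (4.98) lay within the CKO range. Without that array it was 0.59 (adjusted p = 0.00417), and with the replicate number as a block its adjusted p was 0.0484. It was called in 7 ways of processing in all, among them quantile normalization (0.56, 0.0223) and array weights (0.58, 0.000549). Treg exceeded unstimulated cells by 0.47 ± 0.15 in WT (adjusted p = 0.0157), a call lost without WT unstimulated replicate 2 (0.0653) or 3 (0.064), with only the compared arrays (0.0962) and with the slide as a block (0.41, 0.0501). Under normexp its sign turned (-0.23, 0.415). In CKO the same contrast was 0.00 ± 0.15 (adjusted p = 0.997).

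Mlx, the partner of MondoA and MNT, read 1.17, 1.43, 1.38 and 1.01 in unstimulated WT cells and 0.84, 0.70, 0.46 and 0.94 in unstimulated CKO cells. Stimulated cells read 1.65, 1.95, 1.78 and 1.53 in WT and 1.57, 1.41, 1.36 and 1.28 in CKO. Its Treg values were 0.52, 0.34, 0.08 and -0.19 in WT and 0.44, 0.30, -0.14 and 0.28 in CKO. Mlx thus had its highest group means in stimulated cells, as Myc did, and its lowest in Treg. In unstimulated cells the CKO arrays lay below all WT arrays (-0.52 ± 0.16, 1.43-fold, adjusted p = 0.0313). The call was lost without WT replicate 2 (adjusted p = 0.108), WT replicate 3 (0.0905), CKO replicate 2 (0.076) or CKO replicate 3 (0.11). It was also lost under normexp (-0.47, 0.131), with brightest-probe scaling (-0.42, 0.0546), with dim probes left in (0.0758), with only the compared arrays (0.0664) and with the 2 Mlx probes averaged (-0.20, 0.577).

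Mlx rose on stimulation by 0.48 ± 0.16 in WT (adjusted p = 0.0131) and 0.67 ± 0.16 in CKO (adjusted p = 0.00109). The WT call was lost under quantile normalization and in the authors' values (0.30, adjusted p = 0.117 in both), with scaling on the brightest shared probes (0.18, 0.304) and with the 2 probes averaged (0.38, 0.167). With the probes averaged the CKO call was lost too (0.33, 0.241). It was lower in Treg than in unstimulated cells by 1.06 ± 0.16 in WT (2.08-fold, adjusted p = 4.05e-05) and by 0.51 ± 0.16 in CKO (1.43-fold, adjusted p = 0.0222). The CKO Treg call was lost without CKO unstimulated replicate 1 (0.0624) or 4 (0.074) or CKO Treg replicate 3 (0.096), with brightest-probe scaling (-0.29, 0.154) and with only the compared arrays (0.0554). With the probes averaged both Treg calls were lost (WT -0.33, adjusted p = 0.264, and CKO -0.16, 0.661). A second Mlx probe, A_52_P309904, was close to background (well above it on no Treg array) and was called in no contrast.

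**Figure D4:**
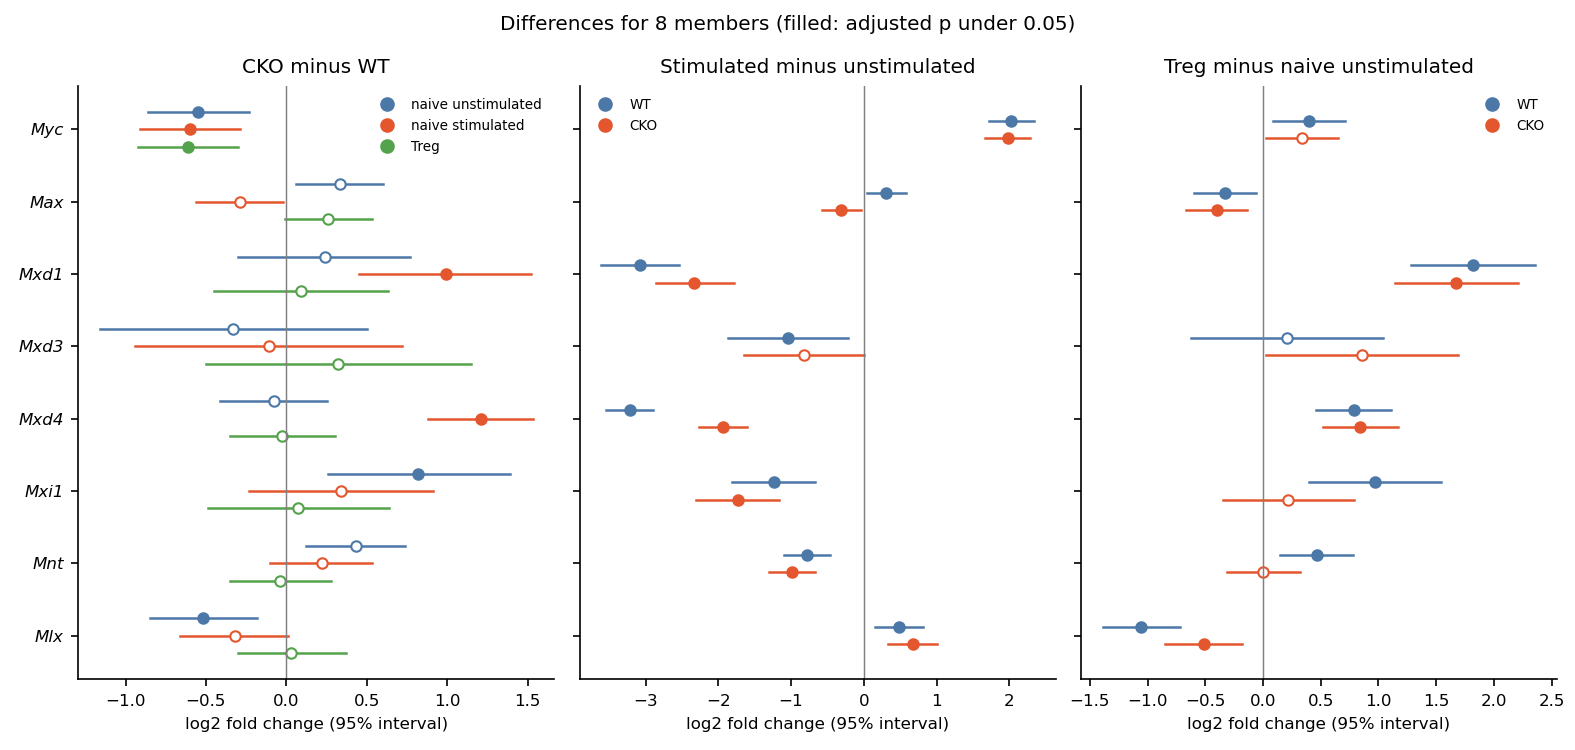
Each line is 1 member, and points give its log2 fold change with the 95% interval, filled where the adjusted p was under 0.05; the panels show the genotype, stimulation and Treg contrasts. Myc lies left of zero in all 3 genotype contrasts, and Mxd4 and Mxd1 lie furthest right in stimulated cells (1.21 and 0.99).

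As a description over the 24 arrays, the antagonists followed each other and ran against Myc. Pearson's r with Myc was -0.864 for Mxd4, -0.847 for Mnt, -0.822 for Mxi1, -0.80 for Mxd1 and -0.563 for the dim Mxd3. For Mlx it was 0.676 and for Max 0.168. Mxd1 and Mxd4 had r = 0.961. The 24 points fall into groups set by cell state, so these values mostly describe the differences between states. The opposition did not hold between every 2 states. In Treg against unstimulated WT cells Myc (0.40) was called higher along with Mxd1 (1.82), Mxd4 (0.79), Mxi1 (0.97) and Mnt (0.47). In that contrast the signs of Myc and Mnt turned under normexp. The 5 genes with the highest Pearson's r with Myc over the 24 arrays, among kept genes with established names, were Smyd2 (0.981), Foxred2 (0.98), Slc25a33 (0.976), Cdca7 (0.974) and Nefh (0.971). Smyd2 had group means of 1.66 in unstimulated WT, 0.56 in unstimulated CKO, 4.79 in stimulated WT, 3.99 in stimulated CKO, 2.48 in WT Treg and 1.57 in CKO Treg, which is the order of the Myc means. For Mxd4 the genes with the highest r included Ppp1r3f (0.988), Igflr1 (0.986), Gata3 (0.986) and Oas1a (0.983). Ppp1r3f had means of -0.86 and -0.94 in unstimulated WT and CKO, -4.48 and -3.32 in stimulated cells, and -0.14 and -0.29 in Treg.

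Markers of other cell types moved with genotype and state, and their part in the members' differences was not tested. Between genotypes 7.83% of all genes were called higher in unstimulated cells, 11.6% in stimulated cells and 2.47% in Treg. In CKO against WT, B cell markers had a median difference of 1.23 in unstimulated cells (1 of 8 called higher), 1.67 in stimulated cells (3 of 8) and 0.16 in Treg (0 of 8 by limma, also at an unadjusted p under 0.05). The log2 of their summed signal, on the same scale as above, ranged from 2.82 to 4.76 in unstimulated WT, 4.13 to 5.91 in unstimulated CKO, -0.92 to 1.63 in stimulated WT, 0.79 to 2.81 in stimulated CKO, 1.99 to 3.27 in WT Treg and 2.17 to 3.68 in CKO Treg. CD8 and NK markers had medians of 1.25 (2 of 6 called higher), 0.59 (2 of 6) and 0.24 (1 of 6). Treg markers had medians of 0.96 (3 of 5 called higher), 0.42 (2 of 5) and 0.08 (0 of 5 by limma, 1 lower at an unadjusted p under 0.05). Of 8 myeloid markers limma called none, with 1, 1 and 0 at an unadjusted p under 0.05 and medians of 0.55, 0.74 and 0.11. Stimulation lowered all 8 myeloid markers in both genotypes (medians -3.83 and -3.73) and 8 of 8 B cell markers in WT and 7 of 8 in CKO (medians -2.95 and -2.86), along with the fall of Mxd1, Mxd4, Mxi1 and Mnt. CD8 and NK markers fell with them (5 of 6 in WT and 6 of 6 in CKO, medians -3.20 and -3.96), as did 4 of 4 erythroid and platelet markers (medians -3.13 and -3.30). Of all genes, 30.2% in WT and 30.4% in CKO were called lower on stimulation. In Treg against unstimulated cells, B cell markers were lower in 5 of 8 (WT, median -1.64) and 8 of 8 (CKO, median -2.75), and CD8 and NK markers in 4 of 6 (median -1.20) and 5 of 6 (median -1.48). In that contrast 29.4% (WT) and 16.7% (CKO) of all genes were called lower.

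Genes known to be raised by MYC were read next, from 4 lists with 58 measured genes. After stimulation 56 of them were called higher and 1 lower (E2f2) in WT, with a median of 2.18, beside 31.7% of all genes called higher. In CKO 52 were higher and 2 lower (E2f2 and Tfam), with a median of 2.20, beside 29.7%. Tfam was named after its value was seen. Bcat1, which transfers amino groups of branched-chain amino acids, rose by 8.65 ± 0.22 in WT. Hk2, the first enzyme of glycolysis in activated cells, rose by 5.83 ± 0.20 in WT and 4.76 ± 0.20 in CKO, and this response differed between genotypes (-1.08 ± 0.29, adjusted p = 0.0392). Shmt1, of one-carbon metabolism, rose by 4.83 ± 0.20 and 5.29 ± 0.20, and Srm, the spermidine synthase, by 3.44 ± 0.17 and 3.78 ± 0.17.

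In CKO against WT limma called no MYC target gene higher in any state, and 1 in unstimulated cells, 0 in stimulated cells and 0 in Treg were higher at an unadjusted p under 0.05. Called lower were 20 of 58 in unstimulated cells (median -0.33), 27 in stimulated cells (-0.46) and 6 in Treg (-0.29). All genes had medians of 0.01, -0.05 and 0 in these contrasts, and 10.9%, 12.4% and 1.84% of them were called lower. The genotypes' responses to stimulation differed for 3 of the 58 targets, Slc1a5 (0.87), Hk2 (-1.08) and the replication helicase subunit Mcm7 (-0.95). Of all genes 3.42% were called for such a difference (2.12% positive and 1.3% negative), so this count is near the background. In Treg against unstimulated cells 6 targets were higher and 25 lower in WT (median -0.41), and 4 higher and 18 lower in CKO (median -0.30), beside 18.9% and 29.4% of all genes called higher and lower in WT and 11.6% and 16.7% in CKO. The 6 genes lower in CKO Treg than in WT Treg were Slc1a5, Shmt1, Rcc1, Ppan, Rrs1 and Ctps.

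By function, 7 of 18 nucleolar and ribosome production genes were lower in unstimulated cells, 8 in stimulated cells and 2 in Treg (Ppan and Rrs1). The share of all genes called lower in these states, against which each list is read, was 10.9%, 12.4% and 1.84%. Dkc1, the pseudouridine synthase of nucleolar RNA, was lower in CKO by 1.26 ± 0.20 without stimulation (adjusted p = 0.000287) and by 0.69 ± 0.20 with it (0.0173). The major nucleolar proteins Npm1 (-0.69 ± 0.18, adjusted p = 0.00842) and Ncl (-0.60 ± 0.19, 0.0255) were lower in stimulated cells. Of 12 genes for polyamine, nucleotide and one-carbon synthesis, 7 were lower in unstimulated cells, 7 in stimulated cells and 2 in Treg (Shmt1 and Ctps). Shmt1 was lower in CKO in all 3 states, by 1.03 ± 0.20 (adjusted p = 0.00188), 0.58 ± 0.20 (0.0411) and 1.12 ± 0.20 (0.00109), and Srm by 0.94 ± 0.17 (0.00122) in unstimulated and 0.60 ± 0.17 (0.0164) in stimulated cells. Ppat, which starts purine synthesis, was lower by 0.78 ± 0.15 in unstimulated and 0.76 ± 0.15 in stimulated cells (adjusted p = 0.00179 and 0.0013).

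Of 14 growth and cell cycle genes, 3 were lower in unstimulated cells (Ccnd2, Cdk4 and Eif4e), 9 in stimulated cells and 1 in Treg (Rcc1). Ccnd2, or cyclin D2, was lower by 0.88 ± 0.14 in unstimulated (adjusted p = 0.000343) and 0.93 ± 0.14 in stimulated cells (0.000121), and its kinase partner Cdk4 by 1.04 ± 0.26 (0.0107) and 0.95 ± 0.26 (0.0129). Of 14 uptake and energy genes, 3 were lower in unstimulated cells (Slc1a5, Tfrc and Bcat1), 3 in stimulated cells (Bcat1, Slc16a1 and Ldha) and 1 in Treg (Slc1a5). These counts and those of the growth list stand beside 10.9%, 12.4% and 1.84% of all genes called lower in the same states. The glutamine carrier Slc1a5 was lower in unstimulated cells by 0.96 ± 0.15 (adjusted p = 0.000258) and in Treg by 1.24 ± 0.15 (1.37e-05). In stimulated cells the lactate carrier Slc16a1 (-0.72 ± 0.16, adjusted p = 0.00305) and lactate dehydrogenase Ldha (-0.63 ± 0.17, 0.0114) were lower.

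These target counts moved with the scaling. The stimulated genotype count was 27 lower and 0 higher here, 7 lower and 1 higher under quantile normalization and in the authors' values, and 16 lower and 1 higher with scaling on the brightest shared probes. In either direction limma called 3964 of all 16489 genes here, 2381 under quantile normalization, 2376 in the authors' values and 4052 with that scaling. The 8 of 58 targets called under quantile normalization and in the authors' values thus lie near the background. The stimulated target count was 14 without CKO stimulated replicate 3, 15 without CKO replicate 2 and 16 without WT replicate 2. In unstimulated cells normexp background correction left 4, and in Treg it left 0, where quantile normalization gave 11. Of all 16489 genes these settings called 389, 82 and 1026, beside 3088 in unstimulated cells and 710 in Treg as reported.

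**Figure D5:**
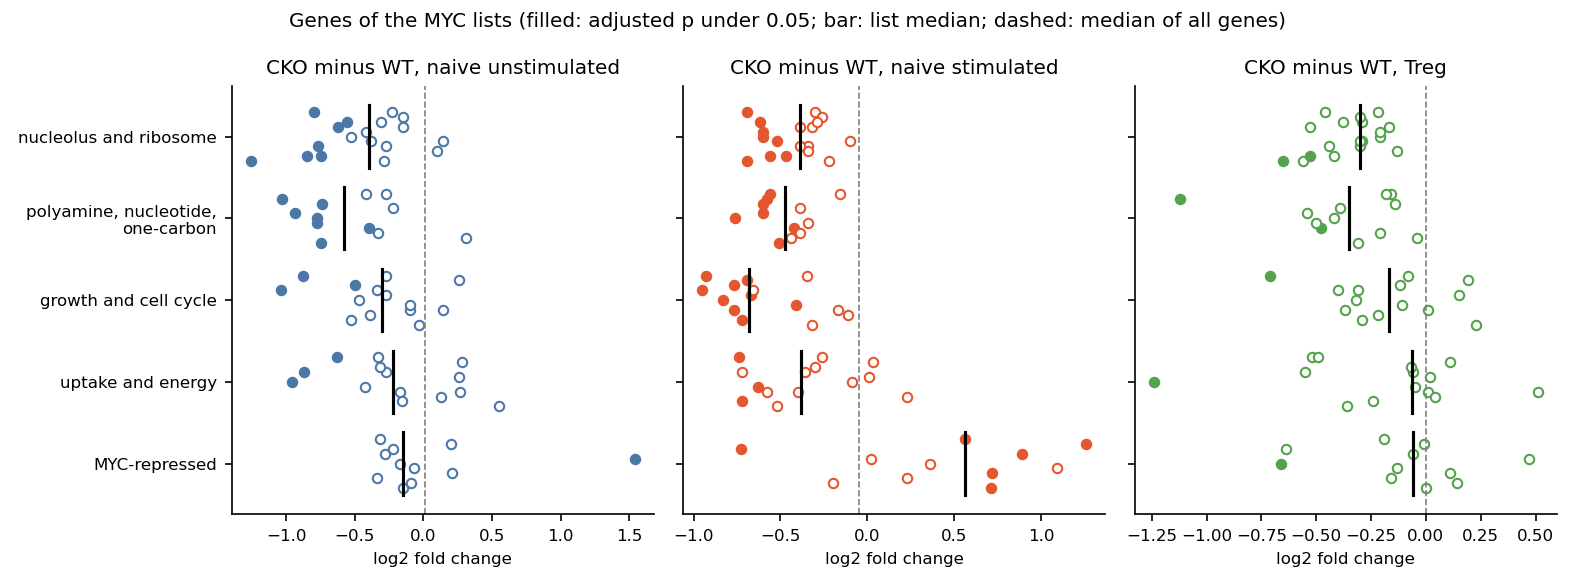
Each point is 1 gene of a list, placed by its CKO minus WT log2 fold change and filled where the adjusted p was under 0.05; the bar is the list's median and the dashed line the median of all genes. The medians of the 4 target lists lie left of the dashed line in each state. That of the MYC-repressed list lies right of it in stimulated cells (0.56) and left of it in unstimulated cells (-0.15) and Treg (-0.06).

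Of 11 genes that MYC is known to repress, 5 were higher and 1 lower in stimulated CKO cells, with a median of 0.56 beside -0.05 for all genes and 11.6% of all genes called higher. The list's median was -0.15 in unstimulated cells and -0.06 in Treg, beside 0.01 and 0 for all genes. The 6 calls became 1 under normexp background correction, 3 with dim probes left in and 9 with array weights. All genes called in this contrast were 3964 of 16489 as reported, 1380 under normexp, 2496 of 27670 with dim probes left in and 7470 with array weights. Ndrg1, a growth-restraining stress gene, was higher by 1.26 ± 0.16 (adjusted p = 1.44e-05), and its response to stimulation differed between genotypes by 1.05 ± 0.22 (0.0104). The CDK inhibitor p21, encoded by Cdkn1a, was higher by 0.89 ± 0.28 (adjusted p = 0.0259) and the antiproliferative Btg2 by 0.72 ± 0.20 (0.0155), whereas the CDK inhibitor Cdkn2c was lower (-0.73 ± 0.24, 0.0331). The remaining called genes, Cdkn1b (0.71) and Bcl2 (0.56), were named after their values were seen. Their responses to stimulation also differed between genotypes (0.87 and 0.88), and the list's count of such differences, 3 here, ran from 0 to 5 over the ways of processing. Such a difference was called for 3.42% of all genes as reported. In unstimulated cells 1 gene of the list was called, Thbs1 (1.54, adjusted p = 0.0257), likewise named after its value was seen. In Treg the 1 called gene was Gadd45a (-0.66 ± 0.16, adjusted p = 0.0157). These single calls stand beside 7.83% of all genes called higher in unstimulated cells and 1.84% called lower in Treg. Stimulation lowered 8 of the 11 and raised 2, Cdkn1a and Ndrg1, in both genotypes, and Cdkn1a rose by 3.06 ± 0.28 in WT and 4.23 ± 0.28 in CKO. On stimulation 30.2% of all genes were called lower and 31.7% higher in WT, and 30.4% and 29.7% in CKO.

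Among 19 measured cofactors and further network factors, including MondoA, SIN3 and TRRAP complex subunits, limma called none for genotype in any state, and 4, 1 and 2 had an unadjusted p under 0.05 in unstimulated cells, stimulated cells and Treg. Over the ways of processing the count ran from 0 to 8 in unstimulated and 0 to 4 in stimulated cells, highest with array weights in both, and was 0 throughout in Treg. With array weights 6580 and 7470 of all 16489 genes were called in unstimulated and stimulated cells. Stimulation raised 8 and lowered 3 of them in WT, beside 61.9% of all genes called, and raised 6 and lowered 5 in CKO, beside 60.2%, so these counts are near the background. The corepressor subunit Ncor1, the helicase Ep400 and the MAX-binding factor Mga fell in both, by 0.80, 0.69 and 0.34 in WT, and were named after their values were seen. Ruvbl1 and Ruvbl2, helicase-like subunits of MYC coactivator complexes, rose by 2.61 ± 0.17 and 2.18 ± 0.17 in WT. In Treg against unstimulated cells 8 of the 19 cofactors were lower in each genotype. Of all genes, 29.4% in WT and 16.7% in CKO were called lower. Over the ways of processing the cofactor calls in either direction ran from 3 to 10 in WT and 3 to 12 in CKO. Among the cofactors lower in both was the corepressor Sin3b, by 0.61 ± 0.17 in WT (adjusted p = 0.00623) and 0.55 ± 0.17 in CKO (0.0208).

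Of 13 genes whose proteins set the stability or activity of MYC protein, 1 was higher (Fbxw7) and 2 lower (Usp28 and Trim32) in unstimulated CKO cells, 2 higher (Pim1 and Bin1) and 2 lower, among them Aurka, in stimulated cells, and 1 lower (Usp28) in Treg. These counts lie near the background of 18.7%, 24% and 4.31% of all genes called, and over the ways of processing they ran from 1 to 8, 2 to 7 and 0 to 1. Usp28, a deubiquitinase that spares MYC, was lower by 1.04 ± 0.13 in unstimulated cells (adjusted p = 1.32e-05) and 0.84 ± 0.13 in Treg (0.000161). Fbxw7, the ubiquitin ligase subunit that marks MYC for decay, was higher before stimulation by 0.81 ± 0.19 (adjusted p = 0.00813). After stimulation the kinase gene Pim1 was higher by 1.00 ± 0.24 (adjusted p = 0.00579) and the mitotic kinase gene Aurka was lower (-0.67 ± 0.17, 0.00848). RNA arrays do not measure MYC protein.

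The textbook MondoA and MLX targets Txnip and Arrdc4 were read beside Mlx. Txnip, an inhibitor of glucose uptake, was lower in CKO by 1.13 ± 0.27 in unstimulated cells (adjusted p = 0.00784) and higher by 0.94 ± 0.27 in stimulated cells (0.0163). On stimulation it fell by 4.74 ± 0.27 in WT and fell by 2.67 ± 0.27 in CKO, and these responses differed by 2.07 ± 0.38 (adjusted p = 0.0031). Arrdc4 was higher in Treg than in unstimulated cells by 2.04 ± 0.40 in WT (adjusted p = 0.000523) and 1.62 ± 0.40 in CKO (0.00564), the opposite sign to Mlx itself in that contrast. Txnip had the sign of Mlx there, at -1.07 ± 0.27 in WT (adjusted p = 0.00306) and -0.59 ± 0.27 in CKO, which was not called (0.104).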

How the data were processed

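Total RNA was measured on 24 Agilent one-colour arrays, 4 in each of 6 groups, on 6 slides of 4 arrays scanned on 1 day. Per the file headers, the intensity of each spot had been background subtracted and detrended, with a surrogate where it was not above noise, by the authors' scanner software (Agilent Feature Extraction 9.5, per the submitters' processing notes). The authors' deposited table of normalized intensity values served as an alternative. Here log2 intensity was centred on each array's 75th percentile after 1608 spots had been left out as outliers. Of 41174 probes, 25198 were well above background on 3 or more arrays of some group, and the brightest kept probe stood for each of 16489 genes. RefSeq held 32719 of the probes' accessions, and 147 of 148 listed symbols were on the arrays. Replicate arrays correlated at r of 0.961 to 0.993, and the number of arrays limits the precision.

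One limma model over the 6 groups gave every contrast and difference between contrasts (R 4.3.3, limma 3.58.1, data.table version 1.17.8, jsonlite 2.0.0; figures with Python 3.11.15 and matplotlib 3.10.9), with Benjamini-Hochberg adjustment over all genes, and was tested on simulated data. The members and gene lists were chosen with earlier results of these data known. All members were named, and from each list and contrast up to 4 genes with the largest called change among those well above background on 3 or more arrays of both groups; exceptions are stated, and a few genes that this rule names are not reported here. Same-numbered arrays of compared groups had correlated deviations of -0.21 to 0.17 in unstimulated cells, -0.31 to 0.41 in stimulated cells and 0.08 to 0.46 in Treg between genotypes, -0.16 to 0.54 (WT) and 0.09 to 0.38 (CKO) between stimulated and unstimulated cells, and 0.06 to 0.47 (WT) and 0.37 to 0.49 (CKO) between Treg and unstimulated cells, so only the last contrast had every pair over 0.1. Alternatives were the background correction (normexp, offset 50), the scaling, the filter and choice of probes, array weights, replicate and slide blocks, and leaving out each array.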

Additional observations from a re-analysis of the deposited data

Results flagged for a closer look

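The Mxd4 value of CKO Treg replicate 2 was 3.00, and the other 3 CKO Treg arrays read 3.13, 3.15 and 3.15. Its gap to the nearest array, as a share of the group's range, exceeded the 95% critical value of Dixon's test for 4 arrays. It was the only such array among 48 groups of member values, where chance alone flags about 1 in 20 groups. The response of Mxd4 to stimulation differed between genotypes by 1.29 ± 0.22 (adjusted p = 0.00183 by limma). Mxd4 fell in all stimulated arrays of both genotypes and fell less in CKO. The call for this difference was lost under normexp background correction, and it was not made for the kept probe A_51_P148865.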

How the results depend on the processing

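Over all alternatives to the single members' values, 1472 kept their side of the threshold, 41 newly passed it and 110 no longer passed. In 8 the sign turned and the value was called as reported or in the alternative. A turned sign that was called in neither is counted among the 1472, so these did not all keep their direction. The cause of the changes was not tested. Calls for members were 3 in unstimulated CKO against WT, and 0 with normexp, 5 with quantile normalization, the authors' values or array weights, 1 with no filter or only the compared arrays, and 0 to 5 without single arrays. In stimulated cells 3 became 1 with normexp and 5 with array weights (3 to 4 without single arrays). In Treg 1 became 0 with normexp, no filter or only the compared arrays (0 to 1). The number of all 16489 genes called moved too. As reported, with normexp and with array weights it was 3088, 389 and 6580 in unstimulated cells. In stimulated cells it was 3964, 1380 and 7470, and in Treg 710, 82 and 647. With quantile normalization it was 3009 in unstimulated cells. With only the compared arrays it was 1700 in unstimulated cells and 365 in Treg. Whether members moved more than all genes was not tested. For stimulation of WT cells 8 became 5 with quantile normalization or the authors' values (6 to 8), and CKO had 6 to 7 without single arrays. All genes called on stimulation of WT cells were 10202 as reported and 9864 with quantile normalization. For Treg against naive cells, WT had 7, and 4 with normexp or only the compared arrays (4 to 7), and CKO had 4, and 2 with only the compared arrays (2 to 4). All genes called in WT were 7974 as reported, 11549 with normexp and 6018 with only the compared arrays. In CKO they were 4666 as reported and 4145 with only the compared arrays. The 1 member whose response to stimulation differed became 0 with normexp, and 2 with quantile normalization, scaling on the brightest shared probes, the authors' values, only probes well above background on all arrays, array weights or the slide as a random block (1 to 2). Of all genes 564 were called for that difference as reported, 71 with normexp, 450 with quantile normalization and 2565 with array weights.

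MYC targets called in CKO against WT were 20 in unstimulated cells, and 4 with normexp, 32 with every kept probe and 33 with array weights (15 to 22 without single arrays). In stimulated cells 27 became 8 with quantile normalization or the authors' values, 17 with scaling on the brightest shared probes and 45 with array weights (14 to 28). In Treg 6 became 0 with normexp, 3 with only the compared arrays and 11 with quantile normalization, brightest-probe scaling or the authors' values (4 to 7). Of all 16489 genes limma called 3088 in unstimulated cells as reported, 389 with normexp and 6580 with array weights. In stimulated cells it called 3964 as reported, 2381 with quantile normalization and 7470 with array weights. In Treg it called 710 as reported, 82 with normexp and 1026 with quantile normalization. Treg against naive CKO cells had 22, and 36 with normexp (12 to 25), and WT 22 to 36 without single arrays. All genes called in that CKO contrast were 4666 as reported and 8850 with normexp. The 3 targets whose response to stimulation differed became 0 with normexp, 1 with no filter or only the compared arrays and 7 with array weights (1 to 3). Of all genes 564 were called for that difference as reported, 71 with normexp, 493 with only the compared arrays and 2565 with array weights. The genotypes' Treg contrasts gave 1 with the mean of probes or every probe and 3 with array weights (0 to 1). Stimulation called 55 to 57 in WT and 53 to 55 in CKO without single arrays.

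Signs turned, with a call as reported or in the alternative, for Max in WT under quantile normalization and the authors' values (0.05 in Treg, -0.07 on stimulation). They also turned for Mnt and Myc in WT Treg under normexp (-0.23 each), and for unstimulated Mxd4 between genotypes (0.47 with probes averaged, 1.77 with the probe of smallest p). With scaling on the brightest probes the median of all genes was 0.11 and 0.16 between genotypes (unstimulated and stimulated), -0.33 and -0.28 on stimulation (WT and CKO) and 0.23 and 0.15 in Treg against naive cells, beside 0.01, -0.05, -0.03, -0.08, -0.09 and -0.07 as reported; with normexp the Treg medians were 0.15 and 0.13. With the replicate block, members called were 4 in unstimulated cells, 3 in stimulated cells and 1 in Treg between genotypes, 8 and 8 on stimulation and 7 and 5 in Treg against naive cells (WT and CKO); the added calls were Mnt (0.43, adjusted p = 0.0484), Mxd3 on stimulation of CKO (-0.82, 0.0305) and Mxd3 in CKO Treg (0.86, 0.0443), the last in the contrast whose replicate numbers pair. With the slide as a fixed block the stimulation calls of Max (WT 0.30, 0.0798; CKO -0.32, 0.0633) and the WT Treg calls of Mnt (0.41, 0.0501) and Myc (0.35, 0.0859) were lost. The scan date was not run as a block, since all arrays share 1 day. The CKO Treg arrays were the dimmest (75th percentile 31.3 to 116), and what this does to the Treg comparisons was not tested.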
